A study of Mus musculus with 4 samples.

Results

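MHC class I molecules carry peptides from inside the cell to its surface, where CD8 T cells and natural killer cells inspect them. Each complex pairs a heavy chain with the common light chain, beta-2-microglobulin. The classical heavy chains present peptides broadly, whereas the non-classical ones have narrower ligands. NLRC5, a protein of the NOD-like receptor family, is known as a transactivator of class I genes. It acts with RFX, CREB/ATF and NF-Y factors on the X and Y boxes just upstream of these genes, next to sites for interferon regulatory factors and NF-kappaB.

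The class I set comprised 9 listed genes, of which 7 are heavy chains with a probe, 1 is the light chain B2m and 1, the classical heavy chain H2-D1, had no probe under its own name and was not analysed here. Members were taken as the non-control probes whose gene name in the scanner files was a listed gene. This gave 8 genes with 20 probes, out of 21212 genes and 41142 probes, and 47 spots of each array belonged to them.

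Kidney RNA from 8-week-old mice was hybridised to 4 one-colour arrays, 1 per group. The groups were NLRC5-/- kidney after ischemia and reperfusion, C57BL/6 wild type kidney after ischemia and reperfusion, NLRC5-/- kidney after a sham operation, and wild type kidney after a sham operation. NLRC5-/- mice are also on the C57BL/6 background per the labels. Both kidneys were made ischemic for 30 min. Titles and design text name 48 h of reperfusion, whereas descriptions of single samples name 24 h. The part of Nlrc5 that was deleted, and whether an array held RNA of 1 mouse or of several, were not given in the sources used here. Each title also carries a single number and the letter R or L, whose meaning the titles do not give. The letter is R for wild type sham and NLRC5-/- injured, and L for NLRC5-/- sham and wild type injured. It therefore differs within every injury and genotype comparison and cannot be told apart from them. With 1 array per group no difference between 2 arrays has a replicate check, and none was tested. Values are log2 intensities minus the 75th percentile of their array, so that 0 is the 75th percentile, and a difference of 1 is 2-fold. In whole kidney, fewer cells of a type and less RNA per cell cannot be told apart.

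The arrays differed in ways that bear on these genes. The 75th percentile of the processed intensity was 362 for NLRC5-/- injured, 182 for wild type injured, 465 for NLRC5-/- sham and 456 for wild type sham, and 67.3% to 74.6% of probes were well above background. Both wild type arrays lay on slide 1 and both NLRC5-/- arrays on slide 2, so that genotype and slide cannot be told apart, while each injury comparison lay within 1 slide. Xist read 5.20 on the NLRC5-/- sham array and was not above background on the other arrays, and the Y-linked genes Ddx3y, Eif2s3y, Kdm5d and Uty were above background everywhere except on that array. The 4 fat markers summed to 25.9 times the 75th percentile on the wild type sham array and to 0.0789 to 0.224 times on the others, where 1 or 2 of the 4 were above background, and the 4 red cell markers to 61.1 on the NLRC5-/- sham array and to 3.11 to 10.3 on the others. All 8 kidney markers were above background on all 4 arrays. The single Nlrc5 probe read -3.62 in NLRC5-/- injured, -3.34 in wild type injured, -3.77 in NLRC5-/- sham and -4.08 in wild type sham, above background on every array. It cannot serve as a check of the genotype where it lies outside the deleted part, and the genotypes are therefore those of the labels.

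The probe sequences were compared with those of the other probes on the array, since the heavy chains are close relatives. They were not compared with transcripts, so a probe without a shared run may still read other transcripts. Probe A_51_P262079 of H2-Q7 (mm9, chr17:35579687-35579918, plus strand) and A_51_P237754 of H2-T23 (mm9, chr17:36167338-36167574, minus strand) have a run of 28 bases in common, shown in capitals.
H2-Q7 A_51_P262079: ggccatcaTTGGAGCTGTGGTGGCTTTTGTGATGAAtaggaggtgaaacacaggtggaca
H2-T23 A_51_P237754: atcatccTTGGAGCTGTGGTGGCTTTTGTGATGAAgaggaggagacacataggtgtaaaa
The files list H2-Q9 beside H2-Q7 for the first of these probes. Another pair, A_52_P50496 of H2-K1 (mm9, chr17:34136288-34136347, minus strand) and A_52_P428354 of H2-Q10 (mm9, chr17:35607907-35607966, plus strand), has 20 bases in common.
H2-K1 A_52_P50496: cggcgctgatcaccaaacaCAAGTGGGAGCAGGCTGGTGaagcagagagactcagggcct
H2-Q10 A_52_P428354: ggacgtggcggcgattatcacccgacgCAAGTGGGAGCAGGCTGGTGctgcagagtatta
The brightest H2-Q10 probe, A_51_P496997 (mm9, chr17:35610210-35610269, plus strand), is listed in the files for H2-Q10, H2-D1 and H2-T-ps together, so its signal cannot be given to one of them.
H2-Q10 A_51_P496997: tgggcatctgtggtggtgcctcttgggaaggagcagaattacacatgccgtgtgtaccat
Of the 20 member probes, 13 had no run of 20 bases in common with any other probe of the array. Another 5 had one with a probe of another name or, for A_51_P496997, of no name. The rest, both of H2-K1, shared the 25-base run TGACCTAGGGCTGATTTCTTGTTAA with each other.

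The promoters were searched for the letters that the class I regulators are known to read, in the 300 bases from 250 before to 50 after the annotated start (RefSeq, GRCm38.p6). All 9 listed genes had a promoter entry, 8 of them on chromosome 17 and B2m on chromosome 2. TGAC followed after 18 to 24 bases by ATTGG, a spacing like that of the X2 and Y boxes, was searched on both strands and was found in 6 of the 9, against 1.65% of 32851 promoters. The 6 windows are shown with TGAC and ATTGG in capitals, 5′ to 3′ on the gene's strand.
H2-K1 chr17:34000353-34000396: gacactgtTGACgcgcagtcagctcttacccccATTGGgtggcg
H2-D1 chr17:35262985-35263028: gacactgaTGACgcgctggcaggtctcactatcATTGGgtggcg
H2-Q4 chr17:35379505-35379548: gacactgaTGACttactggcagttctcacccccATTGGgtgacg
H2-Q7 chr17:35439083-35439125: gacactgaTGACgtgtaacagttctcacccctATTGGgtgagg
H2-M3 chr17:37270180-37270223: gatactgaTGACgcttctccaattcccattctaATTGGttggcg
B2m chr2:122147601-122147644: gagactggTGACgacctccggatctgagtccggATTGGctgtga
The spacer measured 21 bases in 5 of these windows and 20 bases in H2-Q7. For the other three genes the corresponding stretch is shown, placed by the 8 bases that open the H2-Q4 window (H2-Q10) or by the best ungapped match to the windows above, which shared 26 of 44 bases for both H2-T22 and H2-T23.
H2-Q10 chr17:35469980-35470023: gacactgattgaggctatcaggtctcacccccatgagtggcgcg
H2-T22 chr17:36042847-36042890: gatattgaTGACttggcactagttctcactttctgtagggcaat
H2-T23 chr17:36032767-36032810: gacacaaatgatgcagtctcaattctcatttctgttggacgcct
H2-T22 keeps TGAC without an ATTGG at that spacing. The core AANNGAAA of interferon regulatory factor sites was found on either strand in 9 of 9 members and in 23.9% of all promoters, and the NF-kappaB core GGGGNTTCC in 3 of 9 (H2-K1, H2-D1 and H2-Q7) and in 1.69% of all promoters. CCAAT, the Y box core and the reverse complement of ATTGG, so that it overlaps every pair, was found on either strand in 8 of 9 members (all but H2-Q10) and in 37.4% of all promoters. These are matches of letters, with no measurement of binding.

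**Figure D1:**
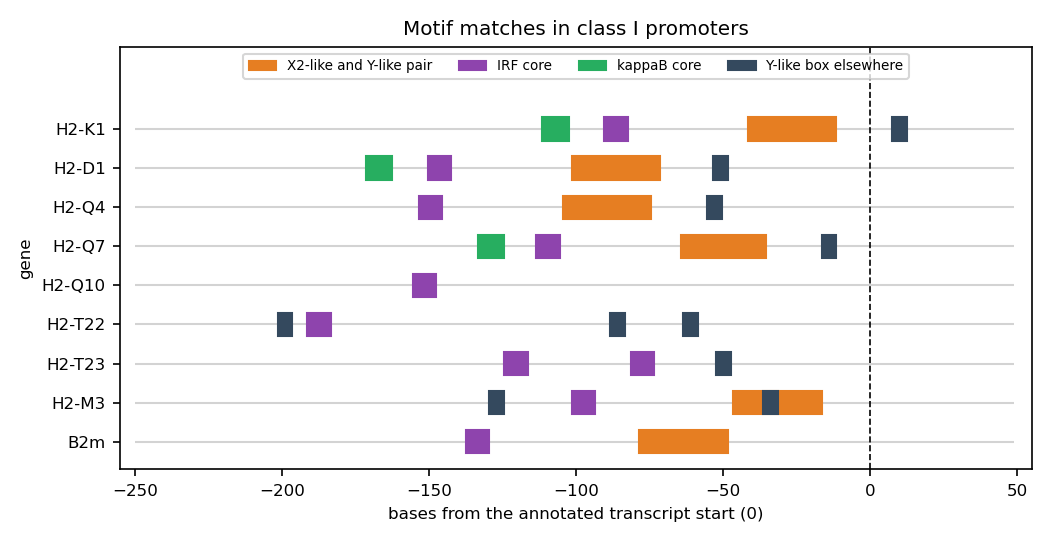
Motif matches in the promoters of the 9 listed class I genes, by distance in bases from the annotated transcript start (dashed line at 0); the box width is the length of the match. The X2-like and Y-like pair (orange) ends between -75 and -12 in the 6 genes that hold it, and every gene has an interferon regulatory factor core (purple); Y-like boxes that are not part of a pair are in dark grey.

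The question of the wild type injury comparison is how class I transcripts stand in the kidney after ischemia and reperfusion. All 8 measured members were lower on the wild type injured array than on the wild type sham array, with a median difference of -0.75 and a range from -1.67 for B2m to -0.36 for H2-M3. However, H2-M3 turned positive with normexp, a model-based background correction, or with all probes averaged. That average takes in the H2-M3 probe A_52_P490263, which was not above background on any array. Among all 16714 genes above background on either array the median was 0.03 and 48.5% were below 0. At 2-fold, 1 of 8 members (B2m) was lower and 0 were higher, against 12.7% and 14.4% of all genes. At 1.5-fold, 5 of 8 were lower, against 23.3% of all genes. The 2-fold count became 3 when arrays were scaled to their medians and 4 with normexp background. The share of all genes was not counted in these settings, so the counts have no comparison. The median of all genes also moved, to -0.12 with median scaling and 0.25 with normexp (measured values in place of bounds). Cell type markers differed between the same arrays: all 4 fat markers were 2-fold lower in wild type injured (median -5.85), as were 6 of 8 kidney, 5 of 10 leukocyte, 4 of 5 endothelial and 4 of 4 red cell markers. Of the leukocyte markers, 1 was 2-fold higher, namely Itgam (2.07). The part of the cell types in the wild type injury result was not tested.

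H2-K1 encodes the classical heavy chain Kb of this strain. Its brightest probe, A_51_P198434, was printed in 10 spots and read 4.97 in NLRC5-/- injured, 4.41 in wild type injured, 4.62 in NLRC5-/- sham and 4.95 in wild type sham kidney. The NLRC5-/- injured and wild type sham arrays were thus the high pair, 0.02 apart, and the wild type injured array was lowest. Injury differed from sham by -0.55 in wild type, which is 1.46-fold lower, and by 0.35 in NLRC5-/-. The spots of this probe ran from 4.32 to 4.46 on the wild type injured array and from 4.75 to 5.07 on the wild type sham array, and the spots of both arrays did not overlap in any of the 4 comparisons, which speaks only to printing and scanning error.

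The 4 probes of H2-K1 formed a pair with one pattern and a pair with another. A_51_P190499, which shares the 25-base run with A_51_P198434, read 4.07 in NLRC5-/- injured, 3.53 in wild type injured, 3.71 in NLRC5-/- sham and 3.97 in wild type sham, the same order as A_51_P198434. A_51_P190499 was named H2-K1 but listed for no RefSeq gene and without a genome position. A_52_P474242 (mm9, chr17:34136478-34136724, minus strand) lies 3363 bases upstream of A_51_P198434 (mm9, chr17:34133055-34133114, minus strand) and spans a splice junction, as its 60 bases cover 247 bases of genome.
H2-K1 A_52_P474242: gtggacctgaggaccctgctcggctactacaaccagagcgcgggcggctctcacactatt
It read -0.40 in NLRC5-/- injured, -0.06 in wild type injured, 0.18 in NLRC5-/- sham and 1.01 in wild type sham. Its neighbour A_52_P50496 read -1.91 in NLRC5-/- injured, -1.41 in wild type injured, -1.11 in NLRC5-/- sham and -0.30 in wild type sham. On both upstream probes the NLRC5-/- injured array was therefore lowest, whereas it was highest on both probes with the shared run. The NLRC5-/- minus wild type difference in injured kidney was 0.56 and 0.54 for the probes with the shared run and -0.34 and -0.50 for the upstream probes, so the direction for H2-K1 depends on the probe. In wild type injury all 4 probes were lower, the upstream ones by more than 2-fold (-1.07 and -1.11).

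H2-Q4, H2-Q7 and H2-Q10 belong to the non-classical Q region; H2-Q7 encodes a Qa-2 antigen, and H2-Q10 a soluble class I chain known mainly from liver. H2-Q4 read 2.51 in NLRC5-/- injured, 2.41 in wild type injured, 2.67 in NLRC5-/- sham and 3.26 in wild type sham kidney. H2-Q7 read 2.33 in NLRC5-/- injured, 2.44 in wild type injured, 2.45 in NLRC5-/- sham and 3.09 in wild type sham. Both genes stood apart on 1 array, wild type sham, and the other three arrays lay within 0.26 of each other for H2-Q4 and within 0.12 for H2-Q7. The 10 H2-Q7 spots overlapped between the injured arrays (2.26 to 2.43 in NLRC5-/-, 2.27 to 2.62 in wild type) and did not overlap between the sham arrays (2.36 to 2.54 in NLRC5-/-, 2.96 to 3.26 in wild type).

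H2-Q10 was covered by 5 probes, and they did not follow one pattern. A_51_P496997, the probe listed also for H2-D1, read 2.09 in NLRC5-/- injured, 1.97 in wild type injured, 2.27 in NLRC5-/- sham and 2.90 in wild type sham. A_51_P230269 (mm9, chr17:35611365-35611424, plus strand), listed for H2-Q10 alone, read -0.80 in NLRC5-/- injured, -2.06 in wild type injured, -0.96 in NLRC5-/- sham and -1.30 in wild type sham. On this probe the wild type injured array alone was low, and NLRC5-/- exceeded wild type by 1.27 in injured and by 0.34 in sham kidney. It was the one member probe of the 19 above background on both sham arrays that was not lower in NLRC5-/- sham. A_52_P428354 had its highest level in wild type sham (-0.25) and its lowest in NLRC5-/- injured (-1.11), with -0.73 in wild type injured and -0.71 in NLRC5-/- sham. A_51_P230267 read -3.85 in NLRC5-/- injured, -4.01 in wild type injured, -3.97 in NLRC5-/- sham and -3.25 in wild type sham. A_52_P112219 was named H2-Q10 but listed for no RefSeq gene. It was not above background on the wild type injured array. Its level there was at least 2.05-fold lower than in wild type sham, and NLRC5-/- injured was at least 1.32-fold higher than wild type injured.

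H2-T22 and H2-T23 belong to the T region; H2-T22 is a ligand of gamma-delta T cell receptors that binds no peptide, and H2-T23 encodes Qa-1, which shows leader peptides of other class I chains to the CD94/NKG2 receptors. H2-T22 read 3.48 in NLRC5-/- injured, 3.50 in wild type injured, 3.22 in NLRC5-/- sham and 4.04 in wild type sham (A_51_P432538). Its coding probes A_52_P197826 (mm9, chr17:36178425-36178484, minus strand) and A_51_P432544 (mm9, chr17:36177222-36177429, minus strand) gave the widest gap between the sham arrays among all member probes.
H2-T22 A_52_P197826: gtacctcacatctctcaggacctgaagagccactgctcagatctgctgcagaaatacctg
H2-T22 A_51_P432544: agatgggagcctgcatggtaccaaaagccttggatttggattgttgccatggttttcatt
A_52_P197826 read -2.48 in NLRC5-/- injured, -2.28 in wild type injured, -2.53 in NLRC5-/- sham and -1.37 in wild type sham. A_51_P432544 read -0.21 in NLRC5-/- injured, 0.19 in wild type injured, -0.13 in NLRC5-/- sham and 0.999 in wild type sham. NLRC5-/- sham was thus lower than wild type sham by 2.24-fold and 2.18-fold on these probes, and by 1.77-fold on A_51_P432538. H2-T23 read 3.08 in NLRC5-/- injured, 2.87 in wild type injured, 3.31 in NLRC5-/- sham and 3.84 in wild type sham. Its injury difference in wild type was -0.97 on its single probe, close to the -0.93 of the brightest H2-Q10 probe.

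H2-M3 presents N-formylated peptides such as those of bacteria. It read -1.81 in NLRC5-/- injured, -2.01 in wild type injured, -2.20 in NLRC5-/- sham and -1.65 in wild type sham (A_51_P469968). The 4 arrays spanned 0.55, the narrowest range among the members, and the sham pair held both ends of it. Its other probe, A_52_P490263, was not above background on any array.

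B2m, the light chain that class I heavy chains need to reach the cell surface, had the widest range among the members. Its brightest probe, A_51_P129012, read 4.49 in NLRC5-/- injured, 3.25 in wild type injured, 4.69 in NLRC5-/- sham and 4.92 in wild type sham. A_51_P129006, printed in 10 spots, read 3.86 in NLRC5-/- injured, 2.51 in wild type injured, 4.13 in NLRC5-/- sham and 4.30 in wild type sham. Both probes put the wild type injured array far below the other three arrays, which lay within 0.44 of each other on both probes. In wild type, B2m was 3.18-fold and 3.46-fold lower after injury on these probes (-1.67 and -1.79). In NLRC5-/- the corresponding values were 1.15-fold and 1.20-fold lower (-0.20 and -0.27). The 10 spots of A_51_P129006 ran from 2.42 to 2.62 on the wild type injured array, and no spot of another array was below 3.73. The third probe, A_52_P105594 (mm9, chr2:121974599-121974658, plus strand), was named B2m but listed for no RefSeq gene. It was dimmer and gave a smaller wild type injury difference of -0.34. It read -1.46 in NLRC5-/- injured, -1.93 in wild type injured, -1.72 in NLRC5-/- sham and -1.59 in wild type sham.

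**Figure D2:**
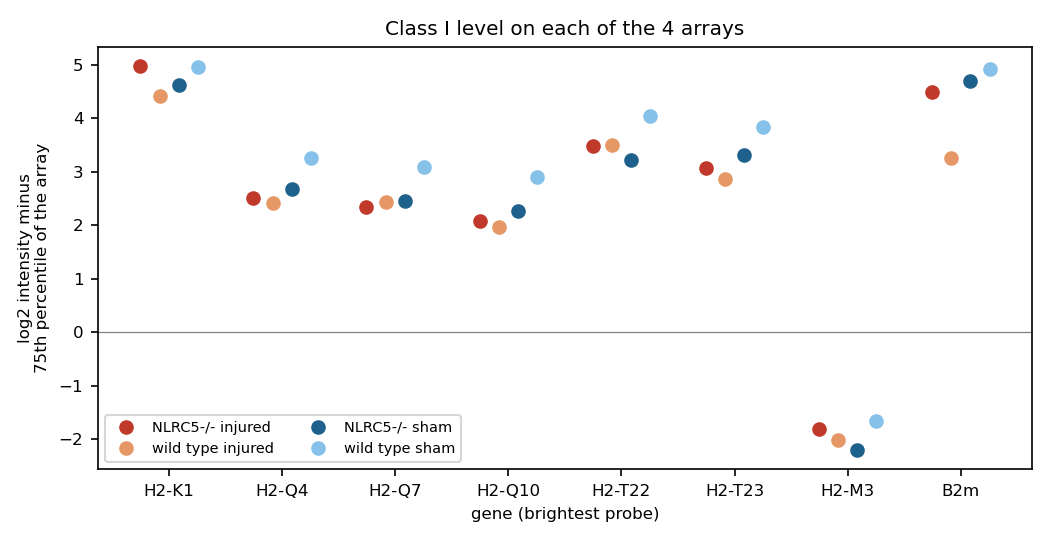
Level of each class I gene on the 4 arrays (1 dot per array, brightest probe; y axis, log2 intensity minus the 75th percentile of the array; heights of different genes are not comparable because their probes differ). Wild type sham is highest for 7 of 8 genes, and B2m in wild type injured (3.25) lies far below its other values.

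**Figure D3:**
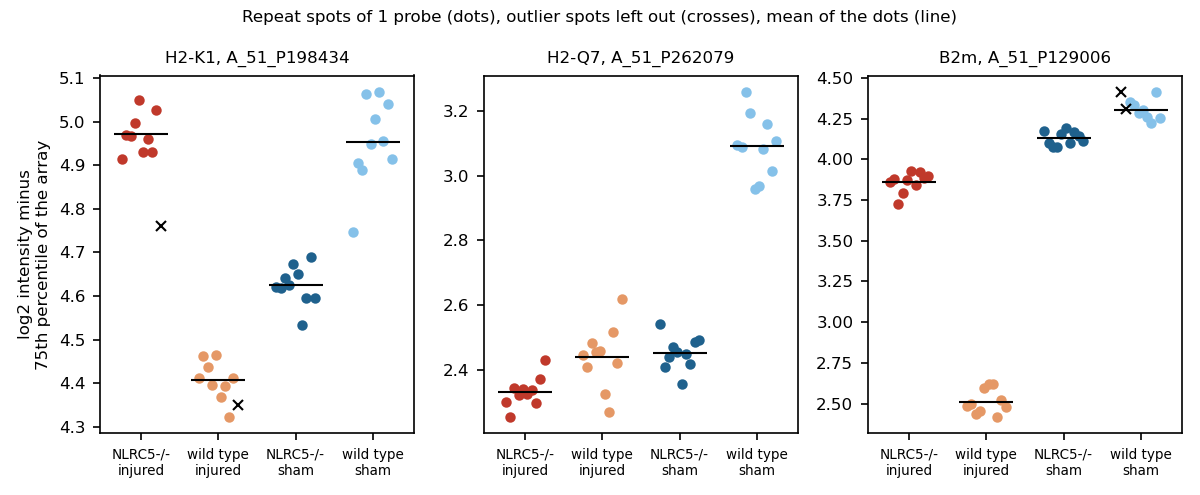
Repeat spots of the 3 member probes printed 10 times, by array (y axis, log2 intensity minus the 75th percentile; dots, spots used; crosses, spots with an outlier flag; lines, means of the dots). For B2m the wild type injured spots (2.42 to 2.62) lie below all others, and for H2-Q7 the spots of the injured arrays overlap.

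The same question was asked in NLRC5-/- kidney. Here the 8 members had a median difference of -0.14 between the injured and the sham array, or -0.56 with normexp, and a range from -0.23 for H2-T23 to 0.39 for H2-M3. H2-K1 (0.35), H2-T22 (0.26) and H2-M3 (0.39) were above 0 and the other five below. No member was 2-fold apart in either direction, against 7.62% of 17082 genes, whose median was 0.02. The highest and the lowest of the 19 probes above background on both arrays were H2-M3 A_51_P469968 (0.39) and H2-K1 A_52_P50496 (-0.80). The sign for H2-K1 turned to below 0 when all its probes were averaged or when background was modelled by normexp, and that of H2-T22 turned under normexp. Normexp met 3 spots far below background on the NLRC5-/- injured array. With background-flagged spots left out too, the median of the 6 members left was -0.18, with H2-K1 at 0.31 and H2-T22 at 0.23. Set against the wild type sham array instead, the NLRC5-/- injured array differed by a median of -0.66. The red cell markers summed to 4.63 times the 75th percentile on the NLRC5-/- injured array and to 61.1 on the NLRC5-/- sham array, which is also the one with Xist, and the part of these in the result was not tested.

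The sham comparison asks how class I levels differ in the absence of NLRC5 without ischemic injury. All 8 members were lower on the NLRC5-/- sham array, with a median of -0.57 and a range from -0.82 for H2-T22 to -0.23 for B2m, against a median of 0.04 over 17031 genes, of which 46.2% were below 0. None was 2-fold lower by its brightest probe, against 3.25% of all genes. When all probes of a gene were averaged, 1 (H2-T22) was, and the share of all genes was not counted there. At 1.5-fold, 4 of 8 were lower (H2-Q7, H2-Q10, H2-T22 and H2-Q4), against 10.3% of all genes. Of the 19 probes above background on both arrays, 18 were below 0. These probes belong to the same 8 genes, and the share over all probes was not counted. Members with the TGAC and ATTGG pair in their promoter lay between -0.64 (H2-Q7) and -0.23 (B2m), and the 3 measured without it between -0.82 (H2-T22) and -0.53 (H2-T23), so their ranges overlapped. The H2-Q10 value among the latter (-0.63) is from the probe listed also for H2-D1, which has the pair, so H2-Q10 cannot be placed securely. Its other probes gave 0.34 for A_51_P230269 and -0.71 to -0.39 for the rest. The wild type sham array that is the high one here is also the one on which fat markers were high (25.9 times the 75th percentile in sum, against 0.224 times on NLRC5-/- sham), the NLRC5-/- sham array is the one with high red cell markers (61.1 against 10.3) and with Xist, and the part of these in the result was not tested.

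In the comparison of the injured kidneys the light chain stood apart. B2m was 2.36-fold higher in NLRC5-/- (1.24; 2.55-fold on A_51_P129006), and H2-K1 was 1.48-fold higher on its brightest probe (0.56). The other six differed by -0.11 for H2-Q7 to 0.21 for H2-T23 and H2-M3. Over the 8 members the median was 0.16, against 0.01 for 16785 genes, and 1 of 8 was 2-fold higher and 0 lower, against 8.66% and 7.8% of all genes. Among the 18 probes above background on both injured arrays, 3 were 2-fold higher, both bright probes of B2m and A_51_P230269 of H2-Q10. The share over all probes was not counted. Directions of the small differences were not stable: H2-T22 (-0.02) turned positive with the authors' values, and H2-Q4, H2-Q10 and H2-T23 turned negative under normexp, where no member was 2-fold higher and the median was -0.05. Normexp met 3 spots far below background on the NLRC5-/- injured array. With background-flagged spots left out too, H2-Q4 was at 0.34, H2-Q10 at 0.38 and B2m at 1.31. H2-Q7 and H2-T22 were then both at 0.05, and H2-T23 and H2-M3 were not covered.

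**Figure D4:**
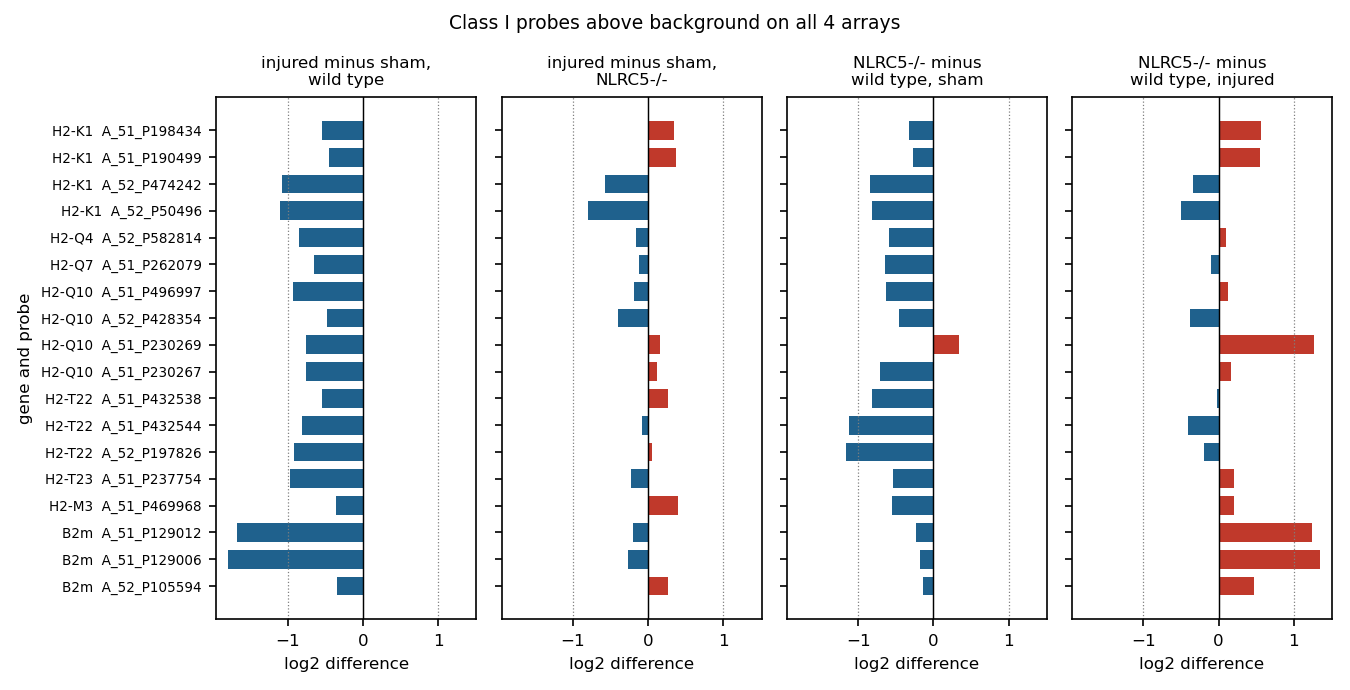
Log2 differences of the 18 class I probes above background on all 4 arrays, in the 4 comparisons (red above 0, blue below 0; dotted lines mark 2-fold). All 18 are below 0 in wild type injury, and in the injured arrays both bright B2m probes and H2-Q10 A_51_P230269 pass 2-fold. The probes belong to 8 genes, and shares over all probes were not counted.

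The injury difference was more positive in NLRC5-/- than in wild type for all 8 members, by 0.53 (H2-Q7) to 1.47 (B2m) with a median of 0.75, where the median over 14989 genes above background on all arrays was -0.02. For 1 of 8 members (B2m) the gap reached 2-fold, against 9.79% of all genes. This gap uses all 4 arrays, so that a high wild type sham array and a low wild type injured array both enter it. It also sets the arrays with the letter R in their titles against those with L, so the gap and the letter cannot be told apart.

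The only fit with a measure of spread was the additive limma model with genotype and injury terms, which has 1 residual degree of freedom. It called 0 of 16604 genes (0.0%) for injury and 0 of 16604 (0.0%) for genotype at an adjusted p of 0.05, with 1870 and 907 genes at an unadjusted p under 0.05. With normexp it called 4376 genes for injury (26.4%), 1 of the 8 members among them, and 101 for genotype (0.608%), with no member. For the members, the injury term ran from -0.93 ± 0.47 (SE) for B2m, with a limma adjusted p of 0.449, to 0.01 ± 0.33 for H2-M3, with an adjusted p of 0.985. The genotype term ran from -0.42 ± 0.33 for H2-T22, with a limma adjusted p of 0.783, to 0.51 ± 0.47 for B2m, with an adjusted p of 0.805. In this model a response that differs between the genotypes counts as error, and B2m had the largest error among the members.

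Other genes of the pathway were set beside the members from lists that follow the chain's route through the cell. In the peptide supply and loading list, 2 of 13 genes were 2-fold higher in NLRC5-/- injured than in wild type injured and none lower, against 8.66% and 7.8% of all genes, with a median of 0.33. They were the immunoproteasome subunits Psmb9 (0.81 in NLRC5-/- injured, -0.82 in wild type injured, 0.00 in NLRC5-/- sham, -0.33 in wild type sham) and Psmb8 (1.05 in NLRC5-/- injured, -0.43 in wild type injured, 0.58 in NLRC5-/- sham, 0.37 in wild type sham). The chaperone Calr followed with a difference of 0.66. In wild type injury that list had a median of 0.13 and in the sham comparison one of 0.21, where the class I molecules had -0.75 and -0.57.

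Among the 12 other class I and class I-like genes above background, none was 2-fold higher and 2 were 2-fold lower in NLRC5-/- injured than in wild type injured kidney, namely Cd1d1, which presents lipids (-1.34), and Procr, the endothelial protein C receptor (-1.10), against 8.66% and 7.8% of all genes. H2-Q5 was higher by 0.95. The H2-L probe A_52_P313279, whose accessions in the files include the transcript of H2-D1, read 3.45 in NLRC5-/- injured, 3.37 in wild type injured, 3.45 in NLRC5-/- sham and 3.89 in wild type sham, with wild type sham again the highest array. The sham comparison of this list had a median of -0.36 with 3 of 12 genes 2-fold lower, against 3.25% of all genes. They were Azgp1 (-4.88), Fcgrt (-1.66) and Cd1d1 (-1.08). The H2 genes above background in this list went both ways in that comparison. H2-T24 (0.73), H2-Q1 (0.48) and H2-Q5 (0.39) were higher in NLRC5-/- sham. H2-Q2 (-0.75), H2-L (-0.44) and H2-M2 (-0.28) were lower.

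In the list of regulators, 1 of 19 genes above background was 2-fold higher and 1 was 2-fold lower in NLRC5-/- injured than in wild type injured. Both shares were below those of all genes (8.66% higher and 7.8% lower). Nfyc, a subunit of the Y box factor NF-Y, was higher by 1.28, and Ifngr2, a chain of the interferon gamma receptor, was lower at -1.24. Irf9, part of the complex that answers type I interferon, differed by 0.98. Ifng itself was not above background on any array.

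Class II genes were low on the wild type injured array, and few receptors that read class I could be measured there. Of 10 listed receptors, 2 were above background in wild type injured. The count was 7 in NLRC5-/- injured, 7 in NLRC5-/- sham and 6 in wild type sham. The receptors summed to 1.57 times the 75th percentile in NLRC5-/- injured, 1.63 in wild type injured, 1.51 in NLRC5-/- sham and 1.71 in wild type sham. Most of each sum came from Pirb, the brightest receptor on every array. It read 0.16 in NLRC5-/- injured, 0.55 in wild type injured, 0.18 in NLRC5-/- sham and 0.30 in wild type sham. The median difference of the list between the injured arrays was 0.02, which is the bound of Klrk1 and gives no direction. Of 7 receptors for class I above background on either injured array, 3 were 2-fold higher in NLRC5-/- injured, namely the CD8 beta chain Cd8b1 (-2.71 in NLRC5-/- injured, -4.67 in wild type injured) and, as lower bounds because they were not above background in wild type injured, the CD8 alpha chain Cd8a and Lilrb4a (at least 1.08 and 1.43 on the log2 scale). Pirb differed by -0.38, and Klrd1, Klrk1 and Klra2, below background in wild type injured, gave bounds of -0.30, 0.02 and -0.01 and so no usable direction. All 7 class II genes were at least 2-fold higher in NLRC5-/- injured, with a median of 2.80, among them H2-Eb1 (1.23 in NLRC5-/- injured, -2.66 in wild type injured), the invariant chain Cd74 (2.76 in NLRC5-/- injured, -0.80 in wild type injured) and H2-Ab1 (2.56 in NLRC5-/- injured, -0.84 in wild type injured).

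The cell type markers differed between the same arrays. The 10 leukocyte markers summed to 4.34 times the 75th percentile in NLRC5-/- injured, 1.85 in wild type injured, 3.65 in NLRC5-/- sham and 3.56 in wild type sham, and 5 of 10 were 2-fold higher in NLRC5-/- injured than in wild type injured, with the macrophage marker Adgre1 (3.13), Itgax (2.96) and Nkg7 (1.75) among them. The 5 endothelial markers summed to 16.5 in NLRC5-/- injured, 4.44 in wild type injured, 22.7 in NLRC5-/- sham and 18.4 in wild type sham. The 8 kidney markers summed to 497 in NLRC5-/- injured, 229 in wild type injured, 542 in NLRC5-/- sham and 607 in wild type sham. Each of these 3 sums was lowest in wild type injured, while the order of the other arrays differed between the lists. The defining leukocyte marker Ptprc was above background on all 4 arrays, at -1.07 in NLRC5-/- injured and -2.04 in wild type injured. B2m and the class II genes were also lowest on that array, and the part of the cell types in the result was not tested.

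**Figure D5:**
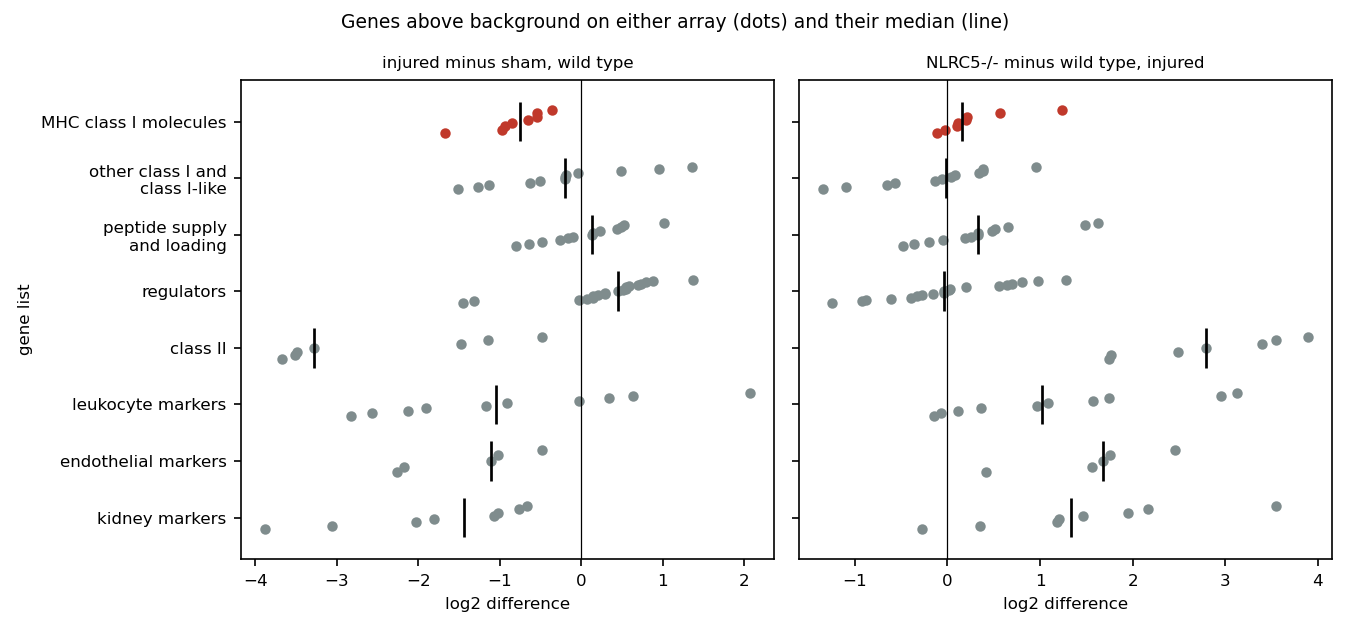
Log2 differences of the class I molecules (red) and of other gene lists (grey), 1 dot per gene above background on either array, with the list's median as a line; where an array was below background the bound is drawn. In the injured comparison the class I median (0.16) lies near 0, and the class II median (2.80) is the farthest to the right of the 8 lists.

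Over the 4 arrays, the members' median pattern (each gene centred on its own mean) was -0.14 in NLRC5-/- injured, -0.32 in wild type injured, -0.08 in NLRC5-/- sham and 0.53 in wild type sham. H2-Q4 lay nearest to it, at a Euclidean distance of 0.0781, and B2m farthest, at 0.930. Among 14981 other genes above background on all arrays, the 5 nearest were Cant1 (0.0514), Ythdf3 (0.0597), Lcmt2 (0.0605), Gnpat (0.0656) and Spg21 (0.0711). With 4 arrays such a likeness is only a description.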

How the data were processed

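RNA of 4 mouse kidneys or kidney pools, 1 array per group, was measured on one-colour Agilent arrays. Intensities of single spots are what the deposited scanner files contain. Agilent Feature Extraction made them, in version 10.7.3.1 according to the file headers, while the submitters' processing notes name 9.1. They were background-subtracted per the file headers but not scaled between arrays. The authors' deposited value table holds log2 values of the same arrays, with column medians of 5.91 to 5.93, no gene centring seen, rank correlations with the scanner intensities of at least 0.99998, and a normalization not given in the sources used here. It was used as an alternative.

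Control and outlier-flagged spots were left out, spots of a probe were averaged, and the 75th percentile of each array was subtracted from the log2 intensity. The brightest probe stood for a gene. A gene counted in a 2-array difference where it was well above background on either array. A probe not above background was raised to the lowest signal well above background on that array unless its own was higher, which makes its difference a bound. Other probes took their names from the RefSeq gene table by accession (27632), symbol (5576) or synonym (466), and 6184 had no name. No 2-array difference was tested. Limma (version 3.58.1, R 4.3.3) was fitted to the 16604 genes above background on at least 2 arrays, with genotype and injury as additive terms and Benjamini-Hochberg adjustment over all of them. It was tested on simulated data. For 245 probes printed several times, differences between arrays had a median SD of 0.129 (log2) over their spots. This covers technical error only, and having 4 arrays limits what can be resolved. Alternatives were normexp background (offset 50), median and quantile scaling, the authors' values, all probes of a gene averaged, a 1.5-fold threshold and other background filters.

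Every member and each of its probes is reported. From each of the 5 pathway lists the text names the 3 genes with the widest difference between the injured arrays, by the bound where there is one, and the 5 genes nearest to the members' pattern. H2-L, Ifng, the other receptors for class I and the cell type markers named were chosen after their values were seen. The same holds for the class I-like genes named for the sham comparison. The members and lists were chosen with earlier results of these data known.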

Additional observations from a re-analysis of the deposited data

Results flagged for a closer look

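Several members differed in opposite directions under the same contrast. With 1 array per group none of these gaps was tested. Between genotypes, the injury difference of H2-K1 was 0.35 in NLRC5-/- and -0.55 in wild type, a gap of 0.89. H2-T22 stood at 0.26 in NLRC5-/- and -0.54 in wild type, a gap of 0.80, and H2-M3 at 0.39 in NLRC5-/- and -0.36 in wild type, a gap of 0.75. These heavy chains were thus higher after injury in NLRC5-/- kidney and lower in wild type kidney by their brightest probes, but none of the 3 kept opposite directions in every setting. In NLRC5-/- kidney H2-K1 turned to -0.20 and H2-T22 to -0.23 with normexp. With background-flagged spots left out too they were at 0.31 and 0.23. In wild type kidney H2-M3 turned to 0.08 with normexp and to 0.22 with all probes averaged. That average takes in an H2-M3 probe that was not above background on any array.

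Between treatments, 6 members were above 0 for NLRC5-/- minus wild type in injured kidney and below 0 in sham kidney. B2m had the widest gap, 1.47, with 1.24 in injured and -0.23 in sham kidney. H2-K1 had 0.56 in injured and -0.33 in sham kidney, a gap of 0.89. H2-Q10 (0.12 injured, -0.63 sham) and H2-M3 (0.21 injured, -0.55 sham) had gaps of 0.75. H2-T23 (0.21 injured, -0.53 sham) had a gap of 0.74, and H2-Q4 (0.10 injured, -0.59 sham) one of 0.69. The gap of a gene is the same number whichever way the 4 arrays are paired. It cannot be told apart from a difference between the arrays with the letter R and those with L.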

How the results depend on the processing

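No paired analysis was possible because each group held 1 array. For the same reason no replicate could be left out. In wild type injury the 2-fold count of 1 became 4 with normexp background, 3 with median scaling, 3 with normexp background without background-flagged spots and 5 at 1.5-fold, and the median of -0.75 became -0.92 and -0.94 under the 2 normexp settings. In NLRC5-/- injury the median of -0.14 became -0.56 with normexp and -0.66 against the wild type sham array. In the sham comparison the median of -0.57 became -0.72 with median scaling, and the count of 0 became 1 with all probes averaged and 4 at 1.5-fold. The 2-fold counts under normexp, median scaling or averaged probes have no share of all genes beside them, as none was counted. Between the injured arrays normexp gave a count of 0 for 1 and a median of -0.049 for 0.16, and normexp without background-flagged spots gave a median of 0.36. The median gap between the responses, 0.75, was 0.44 and 0.90 under the 2 normexp settings. The limma counts of 0 became 4376 for injury and 101 for genotype with normexp, and 720 for injury and 116 for genotype with normexp without background-flagged spots, and 1 of 8 members was among the 4376 (26.4% of genes). Normexp met 3 spots far below background on the NLRC5-/- injured array, where its fitted background SD was 160 against 0.0993 to 0.720 on the others. The normexp setting without background-flagged spots was chosen after seeing the data and leaves 6 of 8 members. Median scaling put the median of all genes at -0.12 in wild type injury and -0.10 in the sham comparison, against -0.01 and 0.05 before it (measured values in place of bounds), and normexp put it at 0.25 in wild type injury, 0.24 in NLRC5-/- injury and 0.23 between the injured arrays. In the other 60 results and settings, which hold only medians and counts, each value stayed near that reported. Among the differences of single members over the settings, 159 stayed within 0.129 of that reported and 79 moved by more. All 8 members kept a positive gap between the responses in each of the 7 settings computed for them, or 6 for H2-T23 and H2-M3.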
